A study of Homo sapiens with 6 samples.

Results

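The clustered protocadherin genes lie side by side on human chromosome 5, and their open chromatin was followed in 22Rv1 cells, an established human prostate cancer line, by ATAC-seq, in which a transposase inserts adapters into accessible DNA. Members were chosen by position alone. They are the regions, made by merging overlapping peaks of 6 libraries, that hold a peak overlapping 5:140160000-140895000 in hg19. There were 63 of them among 167726 regions on the autosomes and X. All libraries carry the label FOXA1_dTAG, which names a degradation tag on FOXA1, a forkhead pioneer factor of luminal prostate cells. The 3 groups are 0 h, 1 h and 24 h, with 2 libraries each. The labels name neither the degrading compound, nor its dose, nor the clone that carries the tag, and the loss of FOXA1 protein is not measured in these files. Nor do they state whether replicates are separate cultures; p-values measure only the spread between these libraries, which may be technical.

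Protocadherins of the alpha, beta and gamma clusters (PCDHA, PCDHB and PCDHG) are cell adhesion proteins best known from neurons, where each cell uses its own mix of them as a surface identity. In the alpha and gamma clusters, variable first exons, each with its own promoter, are spliced to shared constant exons, whereas beta genes have a single coding exon. CTCF binds near the chosen promoters and at distant enhancers, and cohesin brings these sites together, so the clusters are a textbook case of promoter choice through chromatin looping. The series as a whole concerns how pioneer factors shape the entry of cohesin into chromatin.

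In RefSeq's gene table the order along the chromosome is PCDHA (15 genes, PCDHA1 to PCDHAC2), PCDHB (16 genes, PCDHB1 to PCDHB15), SLC25A2 and TAF7, and PCDHG (22 genes, PCDHGA1 to PCDHGC5). SLC25A2 encodes a mitochondrial carrier of basic amino acids and TAF7 a subunit of the general transcription factor TFIID. That table is built on GRCh38.p14 and the peaks are in hg19, so no peak was assigned to a gene and regions are named by number and hg19 position. Promoter sequences show what the clusters share at the level of DNA. RefSeq's promoter entries (250 bases before to 50 after the start, GRCh38.p14) matched 47 of the 53 genes. The letters CGCT, the core of the conserved element of these promoters, stood on the gene's strand in the last 100 bases before the start in 12 of 13 PCDHA, 13 of 14 PCDHB and 19 of 20 PCDHG promoters. That is 93.6% of them, against 28.0% of all 27305 promoters in the table. The 100-base stretch was chosen after the sequences were seen. The following are the first 3 promoters of each cluster, in gene order, that hold CGCT exactly once in the 250 bases before the start. They are printed 5′ to 3′ on the plus strand with CGCT in capitals, to show the shared element and how the letters around it differ between clusters.
PCDHA1: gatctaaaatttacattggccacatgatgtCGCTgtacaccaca
PCDHA2: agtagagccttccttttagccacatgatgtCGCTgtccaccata
PCDHA4: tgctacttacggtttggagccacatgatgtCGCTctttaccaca
PCDHB7: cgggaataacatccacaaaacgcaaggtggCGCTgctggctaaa
PCDHB16: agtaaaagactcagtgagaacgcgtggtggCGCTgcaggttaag
PCDHB9: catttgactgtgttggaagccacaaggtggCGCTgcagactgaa
PCDHGA1: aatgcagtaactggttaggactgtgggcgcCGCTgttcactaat
PCDHGA2: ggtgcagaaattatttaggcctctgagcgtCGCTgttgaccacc
PCDHGA3: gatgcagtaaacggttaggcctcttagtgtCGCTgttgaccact

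The PCDHA stretches lie at chr5:140786072-140786115, chr5:140794767-140794810 and chr5:140806965-140807008 in GRCh38.p14. The PCDHB ones lie at chr5:141172552-141172595, chr5:141182296-141182339 and chr5:141187060-141187103, and the PCDHG ones at chr5:141330389-141330432, chr5:141338689-141338732 and chr5:141343753-141343796. CGCT sat 38 to 95 bases before the start in these 9 genes. The longer TGGCGCT, picked after the sequences were read and holding CGCT within it, was found on either strand in 13 of 14 PCDHB promoters, 3 of 20 PCDHG and 0 of 13 PCDHA promoters, against 4.08% of all promoters. A CTCF core (CC, 3 free bases, AG, 2 free bases, GGC) was found on either strand in 1 of the 47 promoters and in 10.6% of all. The forkhead letters TGTTTAC were in 0 of 47 (3.44% of all) and TATTTAC in 3 of 47 (2.76% of all). A match or its absence describes these letters in these 300 bases and nothing about binding.

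The window held peaks at many short places, with none called in between, where peak lists give no signal. Its 63 regions amount to 8.57 per 100 kb, beside 8.44 and 9.93 in the stretches of the same length directly before and after it. Peaks covered 35.7 and 31.9 kb of the 735 kb at 0 h, then 35.2 and 33.9 kb at 1 h, then 29.6 and 30.5 kb at 24 h. Thus both 24 h libraries lay below the other 4. Of the 63 regions, 45 (71.4%) had a peak in all 6 libraries, compared with 43.3% of all regions, 54.8% of those in the stretch before and 58.9% of those in the stretch after. Only 2 regions (3.17%) rested on a single library, against 22.5% of all regions. The median region was 630 bp wide (394 bp over all regions), and its fold over local background, a ratio given by the authors' peak caller, averaged 7.74 over the libraries holding it (5.30 over all regions). In 34 regions every library held a strong peak, defined by a −log10 q of at least 10; these are 54.0% of the members and 23.1% of all regions. None of these shares was tested against the rest of the genome, since neighbouring regions are not replicates.

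**Figure D1:**
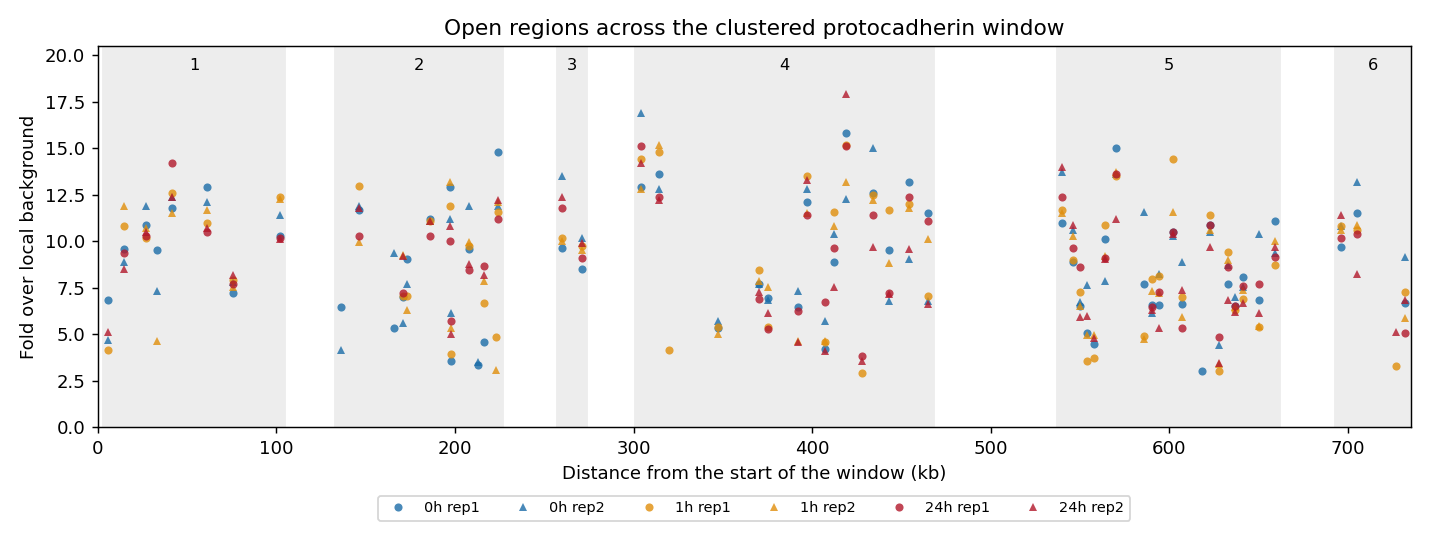
Fold over local background (vertical axis) of each peak against its distance from the start of the window in kb (horizontal axis), with 1 point per library and region; colour gives the time and shape the replicate. Grey bands mark the 6 segments separated by gaps of at least 30 kb, the longest gap lying between segments 4 and 5.

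Gaps between neighbouring open regions ran from 0.633 to 74.4 kb, and the evenness of their spacing was not measured. The median gap between neighbours was 7.77 kb (9.0 kb over all regions), and 42 of 62 gaps (67.7%) were between 3 and 12 kb long, limits chosen after the gaps were seen, against 36.8% of all gaps. Joining regions less than 10 kb apart gave 19 stretches. The longest 3 were 5:140745890-140819692 (73.8 kb, 13 regions), 5:140552111-140603327 (51.2 kb, 8 regions) and 5:140345838-140384262 (38.4 kb, 8 regions). Gaps of at least 30 kb without a peak in any library, a limit set after the data were seen, divide the window into 6 segments. The longest, 5:140625362-140699791, was 74.4 kb long. The others were 35.5, 35.0, 33.5 and 32.6 kb. Segment 1 (5:140165710-140262511) held 8 regions and segment 2 (5:140296021-140384262) 13. Segment 3 (5:140419241-140431388) held only 2, both wide. Segment 4 (5:140464027-140625361) held 16, segment 5 (5:140699792-140819692) 20 and segment 6 (5:140855171-140892329) 4. Regions were densest in segment 5, with 16.7 per 100 kb, and in segment 2, with 14.7, and least dense in segment 1, with 8.26. The short segment 3 had 16.5. The share open in all 6 libraries ran from 7 of 13 in segment 2 to 2 of 2 in segment 3, with 6 of 8, 12 of 16, 15 of 20 and 3 of 4 in segments 1, 4, 5 and 6.

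The 2 strongest regions lay in segment 4. Strength is here a percentile: the highest fold of a region was ranked within each list that holds it, and these ranks were averaged. Region 34 (5:140578950-140579921) ranked first with a strength of 95.7. Its folds were 15.8 and 12.3 at 0 h, then 15.2 and 13.2 at 1 h, then 15.1 and 17.9 at 24 h, resting on pileups of 35 to 68 fragments at the summit. The times overlapped. Region 24 (5:140464027-140464738) followed with 95.5 and folds of 12.9 and 16.9 at 0 h, then 14.4 and 12.8 at 1 h, then 15.1 and 14.2 at 24 h. It too showed no order of the times. Next came region 46 (5:140729499-140730240) in segment 5 with 93.2, and region 25 (5:140473942-140474985) with the same value. Region 46 had folds of 15.0 and 13.6 at 0 h, then 13.5 and 13.7 at 1 h, then 13.6 and 11.2 at 24 h. In region 25 the 1 h libraries stood highest, with 14.8 and 15.2 against 13.6 and 12.8 at 0 h, and 24 h values of 12.4 and 12.2. The other 6 of the top 10 were regions 5, 31, 40, 21, 36 and 15, with strengths of 87.0 to 90.6. Of the 45 regions open in all libraries, 2 (4.44%) reached a strength of 95, a share near the 5.66% of all regions open in all libraries. The median strength of those 45 was 77.9, against 65.3 over all such regions.

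The widest region was region 22 (5:140419241-140421023), 1783 bp long, which with region 23 makes up segment 3. It stood alone between gaps of 35.0 kb before it and 9.22 kb after it. Its peak was 1639 and 1680 bp wide at 0 h, then 1674 and 1693 bp at 1 h, then 1646 and 1762 bp at 24 h, so its width was nearly the same in every library. Its folds were 9.64 and 13.5 at 0 h, then 10.2 and 10.00 at 1 h, then 11.8 and 12.4 at 24 h. The 0 h values enclosed the rest. Region 60 (5:140855171-140856451), the second widest with 1281 bp, opens segment 6 after the 35.5 kb gap and had folds of 9.67 to 11.4. Region 28 (5:140529386-140530611), 1226 bp wide, was weaker, with folds of 6.88 to 8.44. In 1h replicate 1 it was called as 2 narrower peaks. Region 40 (5:140699792-140700888), the first after the 74.4 kb gap, was 1097 bp wide and had folds of 11 and 13.7 at 0 h, then 11.7 and 11.5 at 1 h, then 12.4 and 14 at 24 h.

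**Figure D2:**
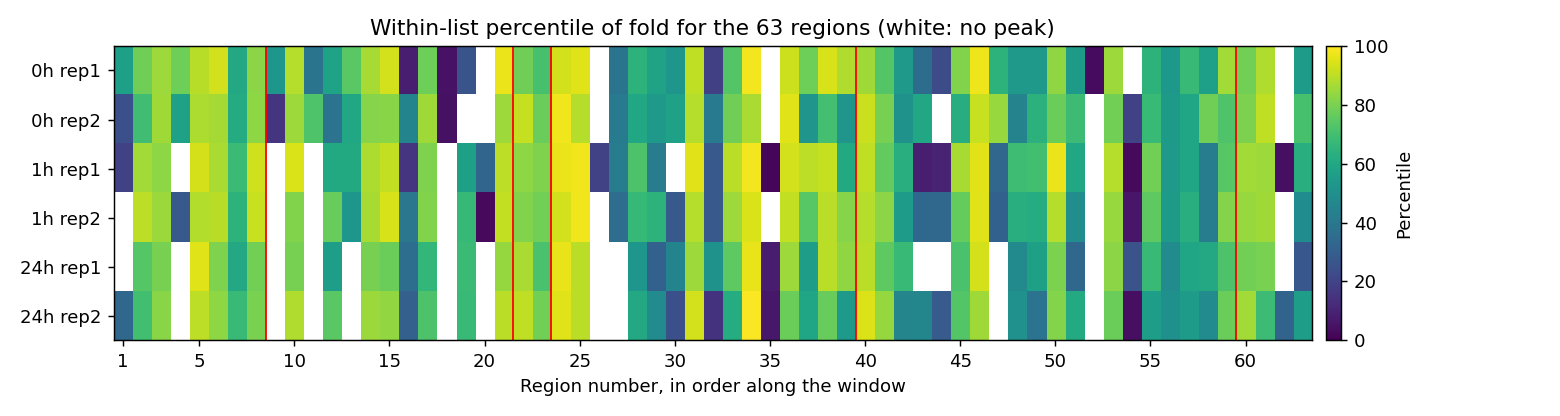
Within-list percentile of fold (colour, 100 for the strongest peak of a list) for the 63 regions in their order along the window (horizontal axis) in each of the 6 libraries (vertical axis); white marks no peak and red lines the segment borders. Columns of 45 regions are filled in all 6 rows, and the white cells are scattered, with 4 of the 7 columns empty at 24 h but filled at 0 h in segment 2.

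The number of peaks in the window did not differ between 0 h and 1 h and was lower at 24 h. The lists held 58 and 56 peaks there at 0 h, then 58 and 56 at 1 h, then 49 and 53 at 24 h. Both 24 h counts lay below the other 4. The mean was 57 ± 1.41 (SD, n = 2) at 0 h and at 1 h and 51 ± 2.83 at 24 h, a difference of −6 whose exact two-sided permutation p was 0.333, the lowest value possible with 2 libraries in each group. Covered length averaged 33.8 ± 2.71 kb at 0 h, 34.5 ± 0.936 kb at 1 h and 30.0 ± 0.669 kb at 24 h, again with an exact permutation p of 0.333 for 24 h against either earlier time. For 1 h against 0 h that p was 1 for both measures. When peaks below a −log10 q of 5 were left out, the difference in peaks was −4 for 24 h against 0 h, −1.50 for 24 h against 1 h and −2.50 for 1 h against 0 h. Whole lists were also shortest on average at 24 h, and per 10000 peaks of a list the window held 4.90 and 4.47 at 0 h, then 5.24 and 4.75 at 1 h, then 4.82 and 4.63 at 24 h. On that scale 24 h lay within the range of 0 h. With all lists shortened to equal length, the counts at 24 h were still lower on average. Peaks in the window then differed by −4 for 24 h against 0 h and by −5 against 1 h. Covered length differed by −3.20 kb and −4.22 kb in the same order. Depth on a relative scale, estimated from the local background values, was 10.4 and 8.24 tags per kb at 0 h, then 8.14 and 8.62 at 1 h, then 7.33 and 7.04 at 24 h. The part of depth in the lower counts at 24 h was not tested.

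At 1 h, 3 members were lost, meaning that both 0 h libraries held a peak and neither 1 h library did. They are 5.45% of the 55 members that both 0 h libraries held, near the 7.48% of all such regions. All 3 lie in segment 2 and had no peak at 24 h either. Region 9 (5:140296021-140296368) had folds of 6.49 and 4.18 at 0 h, from pileups of 16 and 7 fragments. Region 11 (5:140326238-140326429) had 5.35 and 9.40, and its peaks were only 192 and 169 bp wide. Region 18 (5:140372278-140372749) was among the weakest of the window, with 3.34 and 3.51. None of the 3 was strong in both 0 h libraries, and 0 of 41 members strong in both were lost, beside 1.51% of all regions; 0 of 40 were gained as strong peaks (0.0338% of all regions). In the other direction 1 of 53 members (1.89%, against 3.93% of all regions) was gained. That was region 20 (5:140382671-140382904), with folds of 4.84 and 3.09 at 1 h, and it held no peak at 0 h or at 24 h.

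At 24 h, 7 of the 55 members held by both 0 h libraries were lost (12.7%), a share near the 13.1% of all regions. Besides regions 9, 11 and 18 they were regions 4, 13, 27 and 47. Only 1 of 49 members was gained (2.04%, against 6.54% of all regions). Among strong members 2 of 41 were lost (4.88%, against 4.02%) and 0 of 35 gained (0.748% of all regions). Of the 7 lost regions 4 lie in segment 2, and 1 each in segments 1, 4 and 5. The segment borders were set after the data were seen, and this spread over segments was not tested. Segment 2 held 12 and 11 open regions in the 0 h libraries, 10 and 10 at 1 h, then 8 and 8 at 24 h. Segment 5 held 19 and 18, then 19 and 19, then 16 and 18, and segment 4 held 14 and 14, then 15 and 14, then 14 and 14.

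Region 47 (5:140745890-140746415), a strong lost region at the start of the longest stretch, showed the clearest course over time. Its folds were 7.71 and 11.6 at 0 h and 4.91 and 4.73 at 1 h, and it had no peak at 24 h. The pileups behind them were 28 and 26 fragments at 0 h and 11 and 11 at 1 h. Its within-list percentiles were 64.5 and 84.5 at 0 h and 33.0 and 31.1 at 1 h, so both 1 h libraries lay below both 0 h ones. Region 13 (5:140332837-140333346), the other strong lost region, had folds of 9.04 and 7.72 at 0 h and 7.08 and 6.31 at 1 h. Its neighbour region 12 (5:140331229-140331633), 1.2 kb away, went the other way in fold. It had 7.0 and 5.60 at 0 h, then 7.08 and 9.25 at 1 h, then 7.22 and 9.20 at 24 h. Every later fold lay above both 0 h folds, those of replicate 1 only slightly. Its within-list percentiles were 58.0 and 38.0 at 0 h, then 60.9 and 76.8 at 1 h, then 55.7 and 74.5 at 24 h. On that scale 24 h overlapped 0 h.

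Region 4 (5:140192754-140193195) had folds of 9.54 and 7.31 at 0 h and a single peak at 1 h, of 4.62 in replicate 2. It was strong in 0h replicate 1 only, with −log10 q of 18.2 and 9.51. Region 27 (5:140507049-140507497) had 5.35 and 5.74 at 0 h and 5.42 and 5.04 at 1 h, with the times overlapping, and no peak at 24 h. The gained region 35 (5:140588265-140588436) was weak, with folds of 3.85 and 3.58 at 24 h from pileups of 7 and 6 fragments. Its −log10 q was 2.81 and 2.26 at 24 h. In 1h replicate 1 its fold was 2.92 and its −log10 q 1.44, close to the lowest of that list, 1.32. Region 19 (5:140375524-140376055), named after its values were seen, missed the definition of a gain because of 1 weak peak. It had 4.58 in 0h replicate 1 and no peak in 0h replicate 2, then 6.67 and 7.89 at 1 h and 8.66 and 8.17 at 24 h.

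Lost members were weaker and narrower at 0 h than members open in all 6 libraries. Their median fold was 6.49 and 7.31 in the 0 h libraries against 9.67 and 10.4, and their median peak width 400 and 217 bp against 645 and 609 bp. The same holds over all regions, where lost ones had median folds of 4.96 and 5.22 and those open in all 6 libraries 8.02 and 8.88.

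**Figure D3:**
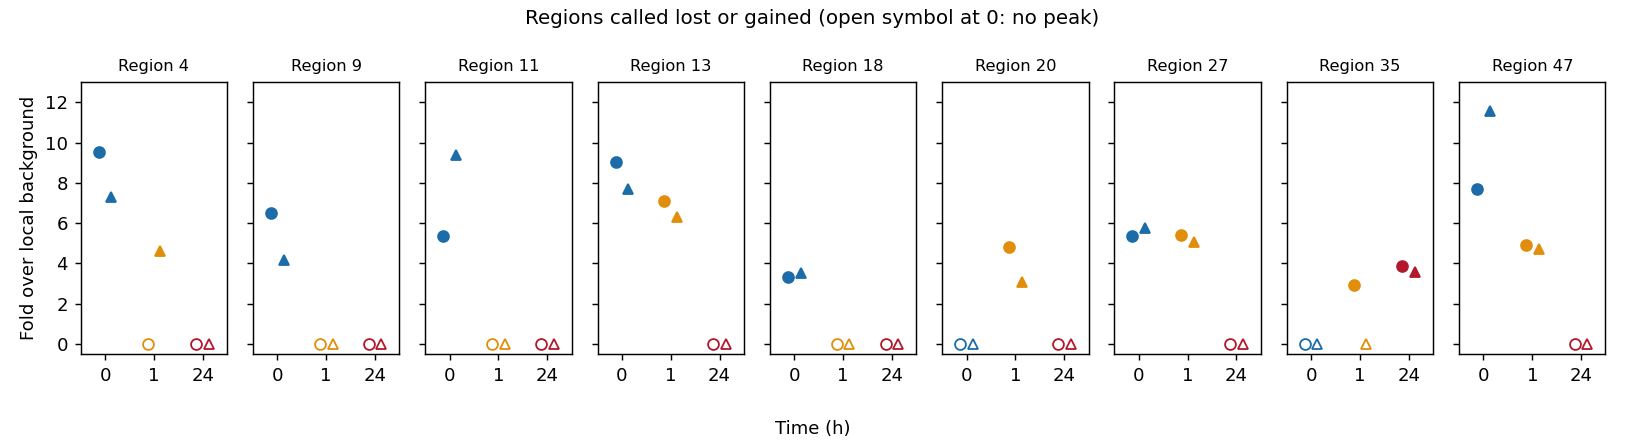
Fold over local background (vertical axis) at 0, 1 and 24 h (horizontal axis) for the 9 regions called lost or gained in any comparison; circles are replicate 1, triangles replicate 2, and an open symbol at 0 marks a library without a peak, not a measured fold of 0. Region 47 shows high values at 0 h, low ones at 1 h and none at 24 h.

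Between 1 h and 24 h, 4 of 53 members were lost (7.55%, against 6.42% of all regions), namely regions 13, 20, 27 and 47, and 0 of 49 were gained (3.85% of all regions). Of strong members 0 of 40 were lost (0.0896% of all regions) and 0 of 35 gained (0.151%). These calls rest on the presence of peaks and carry no p-value.

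To compare strength where peaks remained, each list was shortened to 101755 peaks, the length of the shortest, and peaks were ranked by fold as a percentile of their shortened list. A member was called lowered when both later ranks lay below both earlier ones, and raised in the reverse case. At 1 h, 16 of 47 members ranked in these 4 lists were raised (34.0%, against 27.0% of all regions) and 4 were lowered (8.51%, against 17.9%). At 24 h against 0 h, 5 of 44 were raised (11.4%, against 28.8%) and 7 lowered (15.9%, against 19.3%). Between 1 h and 24 h, 19 of 45 were lowered (42.2%, against 21.6%) and 4 raised (8.89%, against 22.7%). The median difference of mean rank over the members was 3.81 percentile points at 1 h against 0 h (1.36 over all regions), −0.594 at 24 h against 0 h (1.3) and −3.86 at 24 h against 1 h (0.00884). The share raised at 1 h matched that of all regions without 1h replicate 1 (38.8% against 38.6%) and without 0h replicate 2 (42.9% against 44.1%). The low share raised at 24 h against 0 h was likewise lost without 0h replicate 1 (42.2% against 42.0%). The comparisons share libraries, so a high rank at 1 h enters both the first and the last of them.

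The median rank of the members was higher in both 1 h libraries than in the other 4, although single pairs of libraries were less even. Over the 43 members that all 6 shortened lists held, the median rank was 78.1 and 73.6 at 0 h, then 85.0 and 80.0 at 1 h, then 77.5 and 74.5 at 24 h. The values at 0 h and 24 h overlapped. Over all 66286 regions held by the 6 shortened lists, the medians were 64.3 and 64.9, then 67.0 and 66.6, then 66.1 and 66.1. From 1 h to 24 h, 35, 28, 35 and 30 of 45 members had a lower rank in the 4 pairs of libraries, where close to 50% of all regions did (48.9% to 50.5%). From 0 h to 1 h the pairs were less alike. In 1h replicate 2, 25 of 47 members (53.2%) had a lower rank than in 0h replicate 1, more than the 43.1% of all regions, and 14 (29.8%) a lower rank than in 0h replicate 2 (47.4% of all). In 1h replicate 1, 15 (31.9%) ranked lower than in 0h replicate 1 (41.6% of all) and 14 (29.8%) lower than in 0h replicate 2 (45.9% of all). Among members in the middle of their own rank range (mean rank 58.6 to 84.8), 11 of 21 were lowered from 1 h to 24 h, beside 23.6% of all regions in that range. The shares lowered in the stretches before and after the window were 17.1% (6 of 35) and 13.3% (6 of 45). The shortest peak of a list, a minimum that MACS2 by default takes from the fragment length, was 172 and 160 bp at 1 h, longer than the 155 and 111 bp at 0 h and the 147 and 136 bp at 24 h. The part of fragment length and depth in these ranks was not tested.

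Lowered members were spread over the window. From 1 h to 24 h they were 4 of 6 ranked members in segment 1, 4 of 8 in segment 2, 0 of 2 in segment 3, 5 of 11 in segment 4, 5 of 15 in segment 5 and 1 of 3 in segment 6. Of the 4 members lowered from 0 h to 1 h, region 47 moved most in the shortened lists, from 58.8 and 80.9 to 27.1 and 20.2, followed by region 58 (5:140809995-140810342), from 49.5 and 73.6 to 36.9 and 32.9. Region 58 had 60.2 and 41.7 at 24 h, the first within its 0 h range and the other below it. Region 43 (5:140713856-140714253) went from 24.7 and 50.3 to 4.11 and 22.7, and region 61 (5:140864086-140864936) from 86.2 and 88.2 to 84.0 and 83.7.

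The members raised most at 1 h were regions 12, 48, 2, 50 and 33. Region 12 went from 51.2 and 23.6 to 57.5 and 73.1, the widest spread of these. Region 48 (5:140749651-140750065) went from 46.6 and 32.0 to 66.1 and 56.9 and stood at 47.9 and 44.6 at 24 h. Region 2 (5:140174302-140175223) went from 74.8 and 62.3 to 85.0 and 88.5 and was at 73.5 and 66.1 at 24 h. Regions 50 (5:140762111-140762740) and 33 (5:140571704-140572427) did likewise, with 97.0 and 87.2 at 1 h for the one and 89.0 and 83.0 for the other, and 80.3 and 79.3 or 75.1 and 57.2 at 24 h. Of these 5, all but region 12 were lowered again from 1 h to 24 h.

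The 5 members lowered most at 24 h against 0 h were regions 61, 36, 17, 29 and 6. Region 61 ranked 86.2 and 88.2 at 0 h, then 84.0 and 83.7 at 1 h, then 79.7 and 64.6 at 24 h, the only one of the 5 to be lowered in all 3 comparisons. Region 36 (5:140593326-140593942) went from 91.0 and 93.9 to 85.2 and 74.5, and region 17 (5:140367584-140368045) from 74.6 and 82.3 to 66.4 and 68.6. Region 29 (5:140535221-140535691) went from 50.9 and 42.9 to 31.2 and 41.7, and region 6 (5:140220652-140221617) from 92.0 and 83.4 to 80.5 and 80.9. The 5 raised ones were regions 12, 7, 41, 60 and 5. Within the full lists, which differ in length, only region 5 of these stayed raised. There the 0 h and 24 h percentiles overlapped for regions 12, 7, 41 and 60. For region 7 they were 60.2 and 61.4 at 0 h and 60.2 and 67.5 at 24 h. All 5 lowered ones named above stayed lowered in the full lists. The full lists lean that way, being longer at 0 h (118259 and 125396 peaks) than at 24 h (101755 and 114362). Their additional weak peaks lift the 0 h percentiles more than those at 24 h. Neither outcome in the full lists therefore checks the calls. In the shortened lists region 12 reached 55.7 and 71.3 at 24 h and region 7 (5:140235393-140236223) went from 53.7 and 52.4 to 60.2 and 63.4. Region 41 (5:140705614-140706246) went from 69.0 and 74.7 to 75.3 and 82.3, the wide region 60 from 75.2 and 75.5 to 78.7 and 84.6, and region 5 (5:140201067-140201943) from 87.4 and 84.6 to 95 and 89.0.

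**Figure D4:**
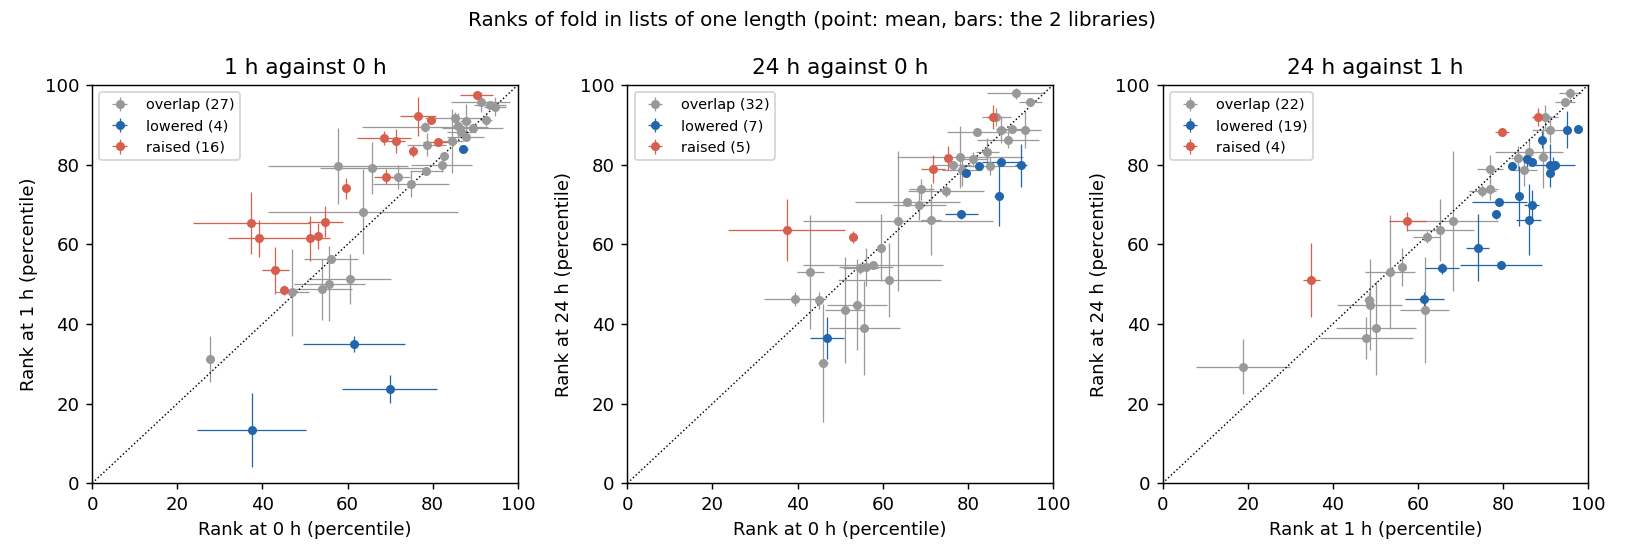
Rank of fold in lists of 101755 peaks at the later time (vertical axis, percentile) against the earlier time (horizontal axis, percentile) for the members ranked in all 4 lists of each comparison; points are means of 2 libraries and bars span both. The 16 raised members lie above the dotted line of equal ranks in the first panel, and the 19 lowered ones below it in the last.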

How the data were processed

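Peak lists of 6 ATAC-seq libraries were used, 1 per library. The submitters' processing notes name hg19, MACS2, Bowtie2, fastp and FastQC; no versions, parameters or shift for the transposase cut are given in the sources used here. Each deposited peak carries a fold, which is a ratio of summit pileup to its surroundings, together with a −log10 p-value and a −log10 q-value, all as the authors' peak caller gave them; the deposited score was not used. The lowered and raised calls used ranks of fold inside a list. Folds set side by side between libraries are descriptive, since lists differ in scale. The median fold over all peaks of a list ran from 6.04 (1h replicate 1) to 6.74 (24h replicate 1).

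Overlapping peaks of all libraries (at least 1 bp, the 22 autosomes and X) were merged into regions. A pileup was recovered from fold and −log10 p by MACS2's usual formulas and matched the −log10 p within 0.001 for 100.0% of peaks. The most frequent background pileup over the shortest peak gave relative depth. Lists were shortened by −log10 p. Python 3.11.15, pandas 2.3.3, numpy 2.4.6 and scipy 1.17.1 were used. The code of the calls was run on simulated lists with the same noise in every library. That run checks the code and not how often calls err in these data. The window, the lists and the tests were chosen with earlier results of these data known. Named regions are all members called lost or gained, the 10 strongest and 3 widest, and up to 5 per direction moved most in rank against 0 h; others are marked as chosen afterwards. Libraries were not treated as pairs in the main comparisons. Alternatives were a stricter −log10 q (5 or more), only strong peaks, lists shortened to equal length, 500 bp summit windows, ranks by −log10 p, other gaps, a replicate block and leaving out each library. No hg19 sequence or annotation was used, so markers of cell type were not checked.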

Additional observations from a re-analysis of the deposited data

How the results depend on the processing

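Direction or size held in most alternatives, and the cause was not tested where it did not. With only strong peaks counted (−log10 q of at least 10) against no peak, losses and gains were 0 and 0 at 1 h, 2 and 0 at 24 h, and losses from 1 h to 24 h were 0; this definition asks for more. In lists of one length 1 region was lost and 0 gained at 1 h, and 0 were gained at 24 h. The difference in peaks between 1 h and 0 h, 0 as reported, was −2.50 with a −log10 q of at least 5 and 1 in lists of one length. Gaps of 5 and 20 kb gave 38 and 10 stretches. Leaving out each library, lost regions numbered 3 to 5 at 1 h, 7 to 9 at 24 h and 4 to 6 from 1 h to 24 h, and gained ones 1 to 4, 1 to 2 and 0 to 1. With 3 libraries the condition is easier to meet. In the same order raised ranks numbered 19 to 30, 9 to 19 and 6 to 10, and lowered ones 6 to 13, 12 to 23 and 22 to 31. The share of all regions lost or gained was not computed in these settings or in lists of one length, so those counts do not set members apart. Raised at 1 h were 61.2% of members without 0h replicate 1 (41.8% of all regions), 42.9% without 0h replicate 2 (44.1%), 38.8% without 1h replicate 1 (38.6%) and 51.1% without 1h replicate 2 (41.0%), so the higher share among members was lost without either of 2 libraries. At 24 h against 0 h the balance turned: without 0h replicate 1, 13 were lowered (28.9%, against 33.9% of all regions) and 19 raised (42.2%, 42.0%), and without 0h replicate 2, 23 (51.1%, 29.6%) and 10 (22.2%, 45.3%). Lowered from 1 h to 24 h were 22 without 1h replicate 1 (47.8%, against 33.4% of all regions), 31 without 1h replicate 2 (68.9%, 35.7%), 27 without 24h replicate 1 (55.1%, 37.4%) and 27 without 24h replicate 2 (58.7%, 36.2%). Ranked by −log10 p, 23 of 45 were lowered (51.1%, 24.7%). Leaving out each library, differences in peaks ranged from −1 to 1 at 1 h and from −8 to −4 at 24 h against either earlier time, while a −log10 q of at least 5 gave −1.50 for 24 h against 1 h. Those in covered length ranged from −1.20 kb (without 0h replicate 2) to 2.64 kb at 1 h, from −5.70 to −1.87 kb at 24 h against 0 h, and from −5.16 to −3.84 kb against 1 h. The labels do not say what a replicate number stands for. Over 72695 regions open in all libraries, the differences in log2 fold between replicates correlated by 0.0418, 0.0432 and 0.0143 between times. Values this low cannot show whether equal numbers share a culture or batch, so pairing stays unknown. With the replicate block, 11 members were lowered and 8 raised at 24 h against 0 h, and the exact sign-flip permutation p for peaks and covered length at 24 h was 0.500, the smallest that 2 pairs allow. The block moved no other count by over 1.5 times. Shares over all regions were not computed with it. The smallest pileups in the window were 6 to 10 fragments, and the part of depth in the calls of weak members was not tested.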
